A study of Drosophila melanogaster with 4 samples.

Results

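HP1a was mapped along the inner part of the left arm of the second chromosome, 2L, in wild-type fruit fly larvae. The regions described are the enriched clusters of the series list that lie on 2L outside the distal 200 kb and the proximal 2 Mb of the arm sequence, a window from 200001 to 21011544 of FlyBase release 5. They were chosen by position alone, and 277 of the 3891 clusters of the list met the rule. The window is 20.8 Mb long, and the 277 clusters covered 726 kb, or 3.49%, of it.

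All samples were larvae of the third instar from the wild-type strain Oregon-R. Chromatin from formaldehyde-treated tissue was precipitated with the antibody wa191 against HP1a in 2 ChIP libraries (replicates 1 and 2), and 2 input libraries served as their backgrounds. The labels do not state separate larval collections for the replicates, so their spread may be technical only. The chromatin is a mixture from all larval tissues, so a site bound strongly in few cells and a site bound weakly in many cannot be told apart.

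HP1a is a chromodomain protein that binds histone H3 methylated on lysine 9, bridges neighbouring nucleosomes and helps to keep heterochromatin compact. Most of it lies in the heterochromatin around centromeres, on chromosome 4 and at telomeres. On the giant polytene chromosomes of larval salivary glands it also stains scattered sites along the arms, including a group of bands on 2L. Some genes on the arms are bound by HP1a while they are transcribed, so binding there is not always a sign of silencing. How the polytene bands correspond to the clusters was not examined, and genes under the clusters were not analysed here.

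The window was sparse in HP1a compared with the heterochromatin of the same arm. The sequence 2LHet, assembled heterochromatin of the arm, was covered over 72.7% in the series list, and the proximal 2 Mb of 2L over 48.1%. The excluded distal 200 kb was covered over 3.60% in the series list, close to the window. In replicates 1 and 2 it was covered over 3.27% and 3.40%, against 2.38% and 2.29% of the window. The median value of the 277 clusters was 0.45 on the log2 scale, a 1.37-fold enrichment of ChIP over input, against 2.04, or 4.11-fold, in 2LHet. The values are the authors' own, and 39 of the 277 reached 1 on the log2 scale. By cover and value the label of a euchromatic region held for the window as a whole, although 2 blocks within it stood far above the rest.

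The clusters nearest to the edges of the window were unlike on the 2 sides. The last cluster outside at the distal end (106408 to 108694) had a value of 0.64, and the first inside (221974 to 223032) had 0.34. At the proximal end the last cluster inside (20926072 to 20927520) had a value of 0.35. The first outside (21141640 to 21144130) had 1.37. Both of these outside clusters were overlapped by both replicate lists, and both inside by neither. The inside ones were 1059 and 1449 bp wide, and 58 of the 66 window clusters of 1001 to 1500 bp were found in neither list. A boundary at the window edges cannot be read from 1 cluster per side.

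Coverage was concentrated at a pair of places. The window was divided into 43 bins of 500 kb, the first and the last of which were cut short by its ends. The bin from 20000001 to 20500000 was covered over 24.5% in the series list, 17.3% in replicate 1 and 19.9% in replicate 2. The bin from 10000001 to 10500000 was covered over 19.0%, 15.1% and 16.8% in the same order. These bins make up 4.81% of the window and held 30.0% of the covered bases of the 277 clusters. In the replicate lists they held 32.8% and 38.6%. No other bin reached 10%, and the median bin was 2.52% covered with 6 clusters.

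The next 3 bins were much lower. The bin from 5000001 to 5500000 was covered over 6.96% in the series list, 6.32% in replicate 1 and 5.75% in replicate 2. The short first bin, from 200001 to 500000, had 5.78%, 3.74% and 3.51%, and the bin from 16500001 to 17000000 had 5.72%, 3.92% and 2.83%. Another 19 of the 43 bins were under 2% covered in the series list.

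**Figure D1:**
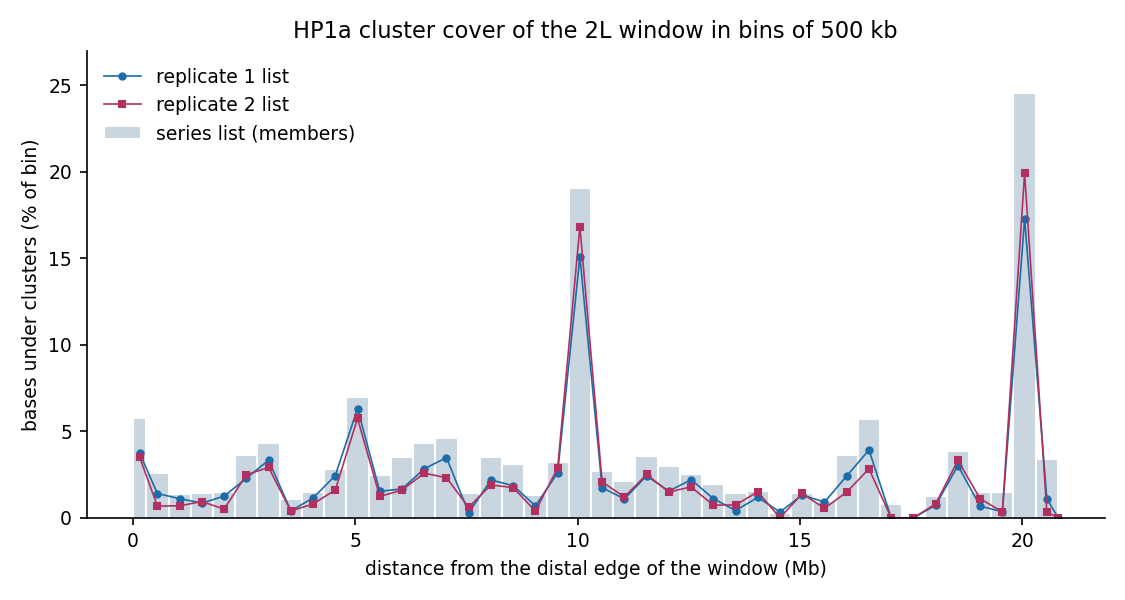
Share of bases under HP1a clusters in each bin of 500 kb, against the distance of the bin from the distal edge of the 2L window in Mb. Bars show the series list and points the replicate 1 and replicate 2 lists, and in all 3 lists the bins near 10 and 20 Mb stand above 15% while every other bin is under 7%.

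Counted over sections of 3 Mb, the clusters of the series list were densest in the middle of the arm. There were 17.0 per Mb from 6000001 to 9000000 and 17.7 per Mb from 9000001 to 12000000, against 9.67 per Mb in each of the next 2 sections, up to 18000000. The section from 9000001 to 12000000 had 53 clusters, 35 in replicate 1 and 41 in replicate 2. The section from 6000001 to 9000000 had 51, 30 and 25, and 19 of the 51 were found in neither replicate list. The last section (18000001 to 21000000) had 43, 31 and 33, so in both replicate lists it held more clusters than the section from 6000001 to 9000000. Cover followed another order, and was highest in the last section, which held the widest clusters, with 6.01%. The section medians of the value ran from 0.38 (12000001 to 15000000) to 0.56 (9000001 to 12000000). In the replicate lists the last section and that from 9000001 to 12000000 had the highest medians of replicate 1, 0.86 and 0.85. In replicate 2 the last section had 0.79, the section from 3000001 to 6000000 had 0.77 and that from 9000001 to 12000000 had 0.70.

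Long stretches had no cluster of the series list. The longest ran for 707 kb, from 17430307 to 18137131, and no cluster of either replicate reached into it. The next were 687 kb (15063245 to 15750291) and 503 kb (14491571 to 14994693). No replicate cluster lay wholly inside any of these 3 stretches. One replicate 2 cluster reached over the edge of the second. The series list overlapped 179 of the 180 replicate 1 clusters and all 168 replicate 2 clusters in the window. The lack of replicate clusters in its gaps was therefore nearly fixed in advance and is no separate support. The median gap between neighbouring clusters was 36.4 kb, and the shortest was 47 bp.

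Neighbouring clusters formed chains in places. Of the 277, 113 (40.8%) lay within 10 kb of another, in 38 chains, and 29 of these chains were pairs. In the windows of the other major arms that share was 50.5% on 2R, 43.1% on 3L, 39.6% on 3R and 68.9% on X. Chaining was thus not particular to 2L. The chained clusters of 2L had medians of 0.50 for the value and 2107 bp for the width. The 164 that stood alone had 0.42 and 1918 bp. Both replicate lists overlapped 65 of the 113 chained (57.5%) and 66 of the 164 lone clusters (40.2%), with 47.3% of all 277 and 52.1% of the whole series list as background. Support rose with width, and the chained clusters were wider. Whether chaining itself goes with support was not tested.

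The longest chain made up most of the proximal hot spot. It spanned 142 kb, from 20081418 to 20223384, with 12 clusters of the series list that covered 82.2% of it. Replicate 1 had 15 clusters there, covering 59.6%, and replicate 2 had 16, covering 67.5%. Both lists overlapped 8 of the 12, 1 list overlapped 3 and neither overlapped 1, beside 47.3% of all 277 that both overlapped. The chain held 16.1% of all bases covered by the 277 clusters in 0.682% of the window.

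The chain contained 4 of the 5 widest clusters of the window. The widest (20167688 to 20199196) was 31.5 kb long and had a value of 1.62 in the series list, 1.57 in replicate 1 and 1.77 in replicate 2. Replicate 1 was split there into clusters of 22.8 kb with 1.57 and 5.77 kb with 2.09, so 1.57 does not stand for the whole stretch. The second (20096778 to 20124488) was 27.7 kb long with 1.43 in the series list, 1.61 in replicate 1 and 1.49 in replicate 2, and was split into 2 clusters in each replicate list. The third (20135752 to 20153486) was 17.7 kb long and weaker, with 0.82, 0.93 and 0.83. It was broken into 4 clusters in each replicate list, which covered 68.2% and 68.7% of it, and the value given for a replicate is that of the cluster sharing most bases with it. The fifth widest (20202848 to 20215898) was 13.1 kb long with 0.92, 1.00 and 0.96, and was split into 2 clusters in each replicate list. The replicates thus placed a pair of strong stretches and weaker cover beside them at the same sites. For the clusters of the chain found in both, the replicate clusters sharing most bases had values within 0.21 of each other.

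The lists differed at 3 clusters of the chain. The stretch between the clusters of 27.7 and 17.7 kb was held by clusters of 3205 bp (20124540 to 20127744) and 6937 bp (20128024 to 20134960). Both were overlapped by replicate 2 alone, with values of 0.89 and 0.79 in that list. A cluster of 2445 bp (20153806 to 20156250) was overlapped by replicate 1 alone. Its value was 2.31 in replicate 1, the highest of all 180 replicate 1 clusters in the window, but 0.92 in the series list. These 3 clusters fall outside the rule for naming and were picked after their values were seen.

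The middle hot spot was built differently, from many separate clusters of moderate width. Its core, from 10209956 to 10438336, spanned 228 kb and held the next 3 chains by length (10291818 to 10389014 with 13 clusters, 10403290 to 10438336 with 6 and 10209956 to 10240214 with 4). With another chain of 2 clusters and 1 lone cluster between them, the core had 26 clusters of the series list, 20 of replicate 1 and 24 of replicate 2, covering 38.8%, 30.3% and 34.4%. Its clusters were 2980 bp wide at the median and those of the proximal chain 4294 bp. The median gap was 4439 bp in the core and 983 bp in the chain. Gaps in a chain cannot exceed 10 kb, whereas the core joins several chains and holds gaps of up to 15347 bp. Part of the difference in gaps and cover thus follows from how the blocks were drawn. Taken singly, the 3 chains named in the core were covered over 45.8%, 46.6% and 57.6% in the series list, against 82.2% in the proximal chain.

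Agreement within the middle core was no closer than in the whole window. The median absolute difference between replicates was 0.14, against 0.12 over all 131 clusters found in both and 0.11 in the proximal chain. Both replicate lists overlapped 20 of the 26 clusters of the core, 1 list overlapped 3 and neither overlapped 3. Over the window both lists overlapped 47.3% of clusters, and 80.5% of those 2001 to 3000 bp wide, the class of the core's median width. The strongest (10403290 to 10409198) had a value of 2.15 in the series list, 2.11 in replicate 1 and 2.19 in replicate 2, an enrichment of 4.33-fold and 4.58-fold in the replicates. A narrower one (10421308 to 10424290) had 2.02, 1.99 and 2.21. The seventh widest cluster of the window (10349620 to 10357714, 8095 bp) had 1.50, 1.48 and 1.59. Of the clusters found in both lists, 7 of the core and 3 of the proximal chain reached a value of 1 in both replicates, and 32 did in the whole window.

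**Figure D2:**
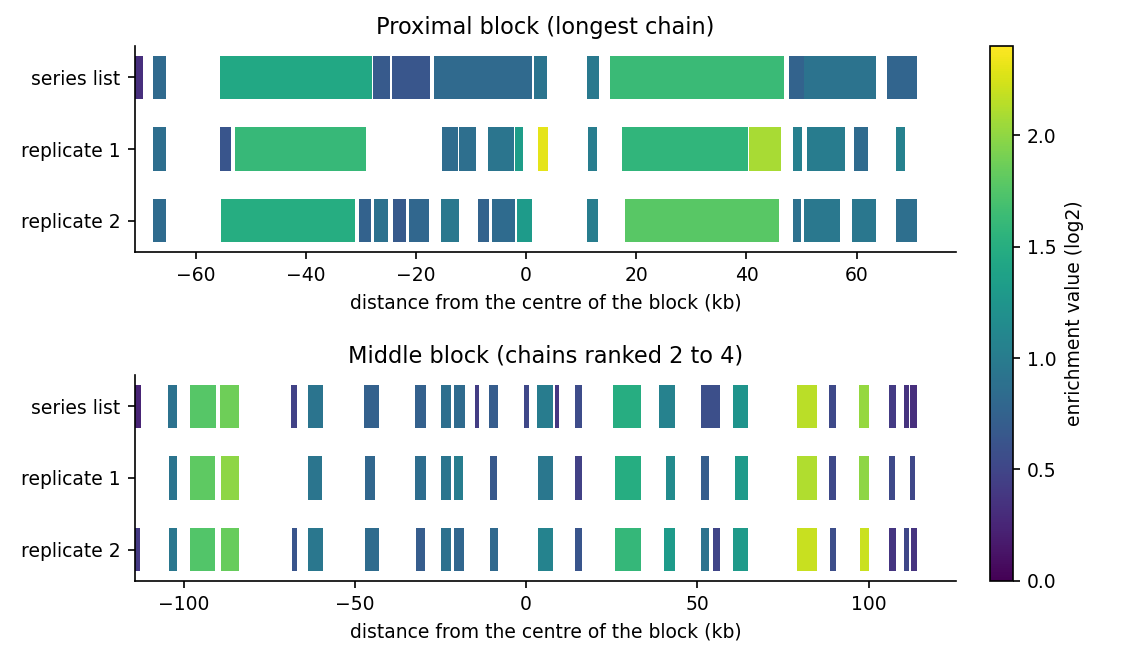
Clusters of the series list and the replicate lists in the proximal chain (top) and the middle core (bottom), drawn to scale against the distance from the centre of each block in kb and coloured by the log2 enrichment value. The proximal chain is nearly continuous around a pair of clusters 27.7 and 31.5 kb long, and the middle core is a row of separate clusters that recur in both replicates.

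The remaining wide clusters lay apart from these blocks. The fourth widest (5158746 to 5174736) was 16.0 kb long, with a value of 1.32 in the series list, 1.36 in replicate 1 and 1.35 in replicate 2. It led the fifth longest chain (5158746 to 5184254), whose 4 clusters covered 91.6% of 25.5 kb. The sixth widest (357612 to 367580, 9969 bp) had 1.05, 1.19 and 1.09, and was split into 2 clusters in replicate 1 and 3 in replicate 2. Its replicate values come from stretches that do not overlap, 362082 to 367356 in replicate 1 and 357678 to 361311 in replicate 2. The 2 replicate 1 clusters had 1.17 and 1.19 and the 3 of replicate 2 had 0.83, 1.09 and 1.93, so 1.19 and 1.09 do not compare the same site. The eighth (9996058 to 10004070, 8013 bp) was the weakest of the 10, with 0.58, 0.70 and 0.53, and was split into 2 clusters in replicate 2. The ninth (11540600 to 11548346, 7747 bp) had 1.70, 1.54 and 1.83, and the tenth (3251702 to 3259320, 7619 bp) had 1.79, 1.83 and 1.80. The 10 widest clusters were all found in both replicates and held 20.3% of the bases covered.

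None of the 10 widest was among the 10 with the highest value, and the latter were of 2 unlike kinds. The first kind was 5 clusters found in both replicates, 2983 to 5909 bp wide. Apart from the 2 in the middle core, they were 12559628 to 12563748 with 2.14 in the series list, 2.00 in replicate 1 and 2.23 in replicate 2, then 9975550 to 9979722 with 2.10, 1.96 and 2.17, and 6992724 to 6996850 with 2.00, 1.77 and 2.13. Each of these 5 was higher in replicate 2. The last had the most negative difference of replicate 1 minus replicate 2 among all clusters found in both, -0.36 on the log2 scale.

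The other 5 were found in neither replicate list and were 1001 to 1985 bp wide. The highest were a pair of 1001 bp each (2661168 to 2662168 and 11215130 to 11216130) with the same value of 3.51, or 11.4-fold. That value was held exactly by 18 clusters of the series list, 8 of them on unplaced sequence and 6 on the major arms. The next were 16141776 to 16143760 with 2.56, 10593190 to 10594304 with 2.45 and 11567516 to 11568836 with 1.99, values held by 4, 6 and 14 clusters of the list. Their nearest replicate clusters lay at least 18092 bp away. The number of reads behind them is unknown. Repeated values occurred in 27 of the 277 clusters (9.75%), and 18 of the 27 were found in neither replicate. The background was 22.6% over the whole list and 13.3% in the windows of the other 4 major arms, cut in the same way.

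Replicate support divided the clusters sharply. Of the 277, 131 (47.3%, 95% Wilson interval 41.5 to 53.2) were overlapped by both replicate lists by at least 1 bp, with 52.1% of all clusters of the series list as background. Another 40 (14.4%, background 8.15%) were overlapped by replicate 1 alone and 24 (8.66%, background 11.5%) by replicate 2 alone. Neither list overlapped 82 (29.6%, interval 24.5 to 35.2), with a background of 28.2%. Without the clusters narrower than any in the replicate lists, a setting chosen after seeing the data, the share in neither was 18.8%. The intervals cover counting error only. In the equally cut windows of the other 4 major arms, 41.1% of clusters were overlapped by both and 35.9% by neither. The shares in both and in neither lay near the background and are no result about 2L. The share in replicate 1 alone (interval 10.8 to 19.1) was above its background over the whole list, and the difference was not tested. In the windows of the other arms that share was 11.8% on 2R, 12.4% on 3L, 13.3% on 3R and 11.2% on X. All of these lay within the 2L interval, so a share above the background was not particular to 2L.

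The 131 clusters found in both were a minority of the number and the majority of the bases. They held 66.6% of the covered length, had a median width of 2327 bp and a median value of 0.65, or 1.56-fold. The 82 found in neither held 15.7% of the length, with medians of 1354 bp and 0.40, or 1.32-fold. The gap of 0.25 on the log2 scale is a difference within the series list, which has no replicate. It was 0.52 when each list was limited to clusters at or above its median. Clusters in replicate 1 alone had a median value of 0.31 and those in replicate 2 alone 0.40. The lower and upper quartiles of the value were 0.45 and 1.00 for clusters found in both, and 0.30 and 0.48 for those found in neither.

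Support followed width closely. No cluster of 1001 to 1500 bp was overlapped by both lists, and 58 of these 66 were overlapped by neither. At 1501 to 2000 bp it was 22 of 82, at 2001 to 3000 bp 66 of 82, at 3001 to 5000 bp 27 of 30 and above that 16 of 17 that both lists overlapped. The exception among the widest was the cluster of 6937 bp in the proximal chain. The narrowest cluster was 1001 bp wide in the whole series list and 1301 bp in both replicate lists, and 38 of the 277 were narrower than the latter. A minimum of 1 shared base is also met more easily by a wide cluster.

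Value did not track width in the same way over the whole range. The median value was 0.40 at 1001 to 1500 bp, lower at 1501 to 2000 bp with 0.27, and then 0.56, 0.87 and 1.32 in the wider classes. Among the 131 found in both, width and value had a Spearman correlation of 0.715, and among the 82 found in neither of -0.302. These describe clusters of 1 list that share its libraries and are not independent replicates. Of the 70 clusters with a value of at least 0.67, 61 were found in both lists, against 15 of the 69 with a value under 0.32.

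**Figure D3:**
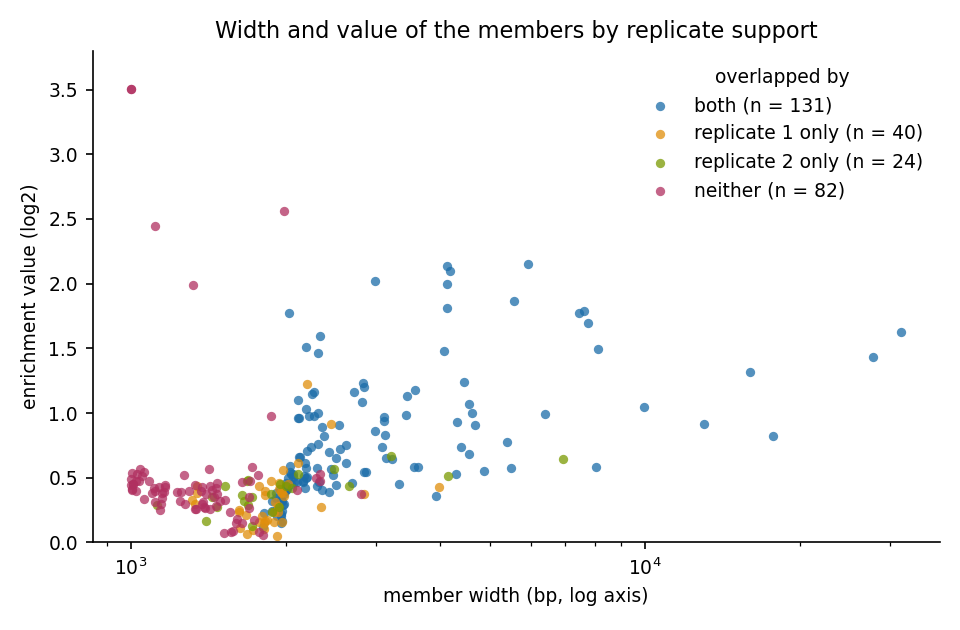
Log2 enrichment value of each of the 277 clusters against its width in bp on a log axis, coloured by which replicate lists overlap it. Clusters found in neither list (n = 82) crowd at the narrow and low end, except for 5 narrow ones with values of 1.99 to 3.51, and clusters found in both (n = 131) hold nearly all wide ones.

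The widest clusters found in neither list were all weak. They were 16332082 to 16334882 (2801 bp, value 0.38), 3010130 to 3012462 (2333 bp, 0.48), 20692748 to 20695078 (2331 bp, 0.53), 16781740 to 16784030 (2291 bp, 0.50) and 7819568 to 7821672 (2105 bp, 0.40). The first and the fourth of these lay 121 bp and 748 bp from the nearest replicate 1 cluster. The last lay 162 kb from any cluster of either replicate. The median distance to the nearest replicate cluster was 37515 bp over all 82.

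Seen from the replicate lists, most clusters recurred. Replicate 1 had 180 clusters in the window, of which 138 (76.7%, background over its whole list 87.9%) overlapped replicate 2. Replicate 2 had 168, of which 140 (83.3%, background 81.4%) overlapped replicate 1. The series list overlapped 179 of the 180 and all 168. Over the window the replicates shared 399 kb of 571 kb covered by either, a Jaccard index of 0.698. Unshared clusters had median values of 0.57 in replicate 1 and 0.52 in replicate 2, against 0.75 and 0.71 for shared ones.

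The values of the 131 clusters found in both lists agree closely between replicates. The median was 0.73 in replicate 1 and 0.70 in replicate 2, and the median absolute difference was 0.12, with 0.18 at the upper quartile and 0.40 at most. Across the 131 clusters Spearman's rho was 0.911 and the Pearson coefficient 0.952. Each of the 131 matched a different cluster in each list, and at 357612 to 367580 the matched replicate clusters do not overlap each other. Only 4 of the 131 differed by more than 0.3. The largest was 9897168 to 9903558, with 1.24 in replicate 1 and 0.84 in replicate 2, a cluster outside the rule for naming that was picked after its values were seen.

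Replicate 1 was the higher one in 89 of the 131 and replicate 2 in 42, with a median difference of 0.07. The offset was uneven. Replicate 1 was higher in 66 of the 91 clusters whose mean was under 1, by 0.10 at the median. It was higher in 23 of the 40 whose mean was at least 1, by 0.02. Ends were placed alike, with median shifts of 71 bp at the start and 96 bp at the end, and in 109 clusters both ends lay within 500 bp of each other. The series list gave wider clusters, 2327 bp at the median against 2108 bp and 2132 bp for the matching replicate clusters. Its value lay below both replicates in 66 of the 131, between them in 64 and above both in 1.

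**Figure D4:**
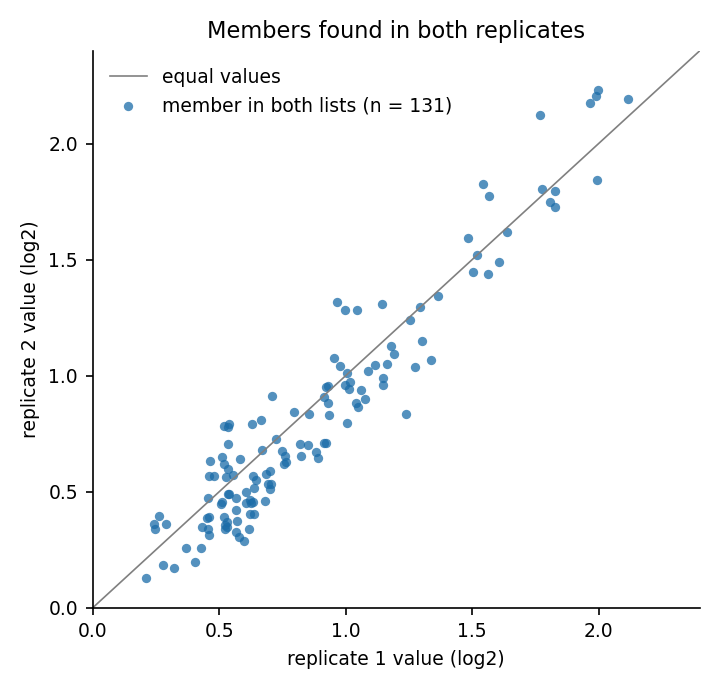
Log2 enrichment value in replicate 2 against that in replicate 1 for the 131 clusters found in both lists, with the line of equal values. Points follow the line over the whole range, and 89 of the 131 lie below it, where replicate 1 is higher.

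Compared with the other major arms cut in the same way, 2L was intermediate in the replicate lists. Its replicates had 8.36 ± 0.41 clusters per Mb (SD, n = 2), against 18.0 ± 0.6 on X, 10.3 ± 0.6 on 2R, 7.36 ± 0.28 on 3L and 6.52 ± 0.19 on 3R. Cover was 2.33% ± 0.06 on 2L, between 2.61% ± 0.08 on 2R and 1.59% ± 0.06 on 3L. In both measures each of these arms lay on the same side of 2L in both replicates. In the series list the density of 2L was just below that of 3L, 13.3 against 13.4 per Mb, while its cover of 3.49% was above the 2.81% of 3L. An exact paired permutation test over 2 libraries reaches p = 0.5 at the lowest, so the differences were left untested. Of the replicate clusters on 2L, 26.1% and 22.6% reached a value of 1, beside 27.1% and 25.7% on 2R and 11.8% and 13.1% on 3L.

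The margin of 2L over 3L in cover was small outside its hot spots. Without its 2 most covered bins, 2L was covered over 1.68% in replicate 1 and 1.47% in replicate 2. The same removal left 1.50% and 1.42% on 3L, 1.32% and 1.23% on 3R, 1.90% and 1.78% on 2R and 4.13% and 4.16% on X. The 2 bins held 32.8% and 38.6% of the cover on 2L in replicates 1 and 2. They held 32.5% and 34.0% on 2R, where the leading bin borders the excluded proximal sequence. On 3L, 3R and X they held between 9.52% and 16.3%. The difference between arms in this concentration was not tested, for the same reason.

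**Figure D5:**
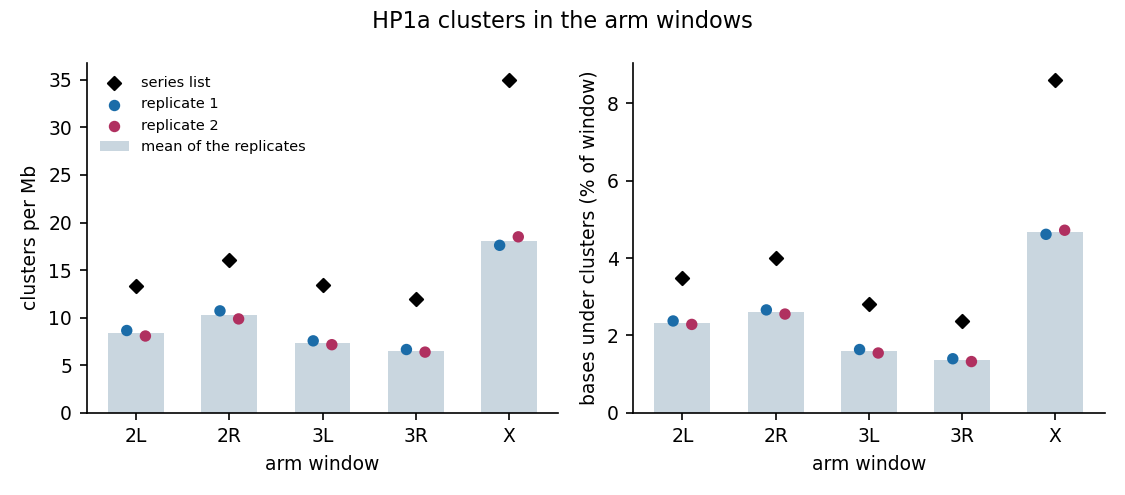
Clusters per Mb (left) and share of bases under clusters (right) in the window of each major arm, with the distal 200 kb and the proximal 2 Mb left out. Bars are means of the replicates, which are shown as points, and diamonds show the series list. In both replicates the 2L window lies between 2R and 3L, and in the series list its density is just below that of 3L.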

How the data were processed

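The data are lists of enriched clusters deposited by the authors, 1 for each of the 2 ChIP libraries and 1 for the series. Per the submitters' processing notes the aligner was Bowtie 0.12.7, and per the file headers the build is FlyBase release 5. Not given in the sources used here are the caller, its threshold and how the series list was made. Each cluster carries 1 deposited value, read as log2 enrichment of ChIP over input because repeated values lie apart by the log2 of ratios of small integers. Depth is unknown.

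Clusters overlapped when they shared at least 1 bp. A replicate's value for a cluster is that of its cluster sharing most bases. Cover is merged length over window length. Clusters within 10 kb of each other formed chains. The overlap code was tested on simulated lists. Named were the 10 widest and 10 highest clusters, the 5 widest and 5 highest found in neither replicate, the 5 most covered bins, the 3 longest gaps and the 5 longest chains. The rule and the region were chosen with earlier results of these data known. The gene table used here is on another release, so genes were not named. Alternatives changed the threshold, window, joining, overlap, bins and distance. Work was done in Python 3.11.15 with pandas 2.3.3, numpy 2.4.6, matplotlib 3.10.9 and scipy 1.17.1.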

Additional observations from a re-analysis of the deposited data

How the results depend on the processing

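Recomputed under the alternatives, 26 of 54 values stayed within the spread of the replicates, within the counting interval or, for counts, within 1.5 times. For the value gap the spread was that of the gap between shared and unshared clusters in the replicate lists. No paired analysis was possible because the result comes from no test and the inputs have no lists. With only the upper part of each list, cut at its median, cover was 2.36% for the series list and 1.56% for the replicates, 35.3% of clusters were found in neither list, the value gap was 0.52, density was 4.18 per Mb, the replicate median was 0.98 and the top 3 bins held 45.9% of the cover (34.8% as reported). The narrower window (without the distal 500 kb and the proximal 3 Mb), which leaves out all clusters of the proximal hot spot, gave 2.92%, 1.93%, a gap of 0.18, 7.76 per Mb, a median of 0.64 and 27.9%. Joining clusters within 1 kb gave a gap of 0.20, 7.74 per Mb and 32.9% of clusters within 10 kb of another. It also moved the values of 6 of 25 named clusters by more than the replicate spread of 0.11. The top 3 bins held 30.8% with bins of 250 kb, 40.7% with bins of 1 Mb, 39.2% in the replicate 1 list and 44.7% in the replicate 2 list. The share of clusters near another was 30.0% at 5 kb and 59.2% at 20 kb. Clusters found in both lists numbered 131 and covered 2.32%. Alternatives chosen after seeing the data were leaving out repeated values, which gave a gap of 0.26, and leaving out clusters narrower than any in the replicate lists, which gave 54.8% in both, 18.8% in neither and a gap of 0.30. Leaving out either replicate gave 8.07 to 8.65 clusters per Mb, 2.29% to 2.38% cover and medians of 0.66 to 0.69. By this rule leaving out a replicate can never move the mean of both. Cutting each list at its median must lower cover and density and raise the replicate median. Keeping only clusters found in both lists must lower their number and cover. These outcomes were fixed in advance, although they are counted among the 54 values. Depth is unknown, so whether the narrow clusters with high values rest on few reads was not tested.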
